A study of Mus musculus with 6 samples.

Results

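The chromatin around 7 genes of the TGF-beta family was described at sites bound by SP1, a widely expressed zinc-finger factor whose motif is the GC box. The genes were Nodal, Lefty1, Lefty2, Tgfb2, Inhbb, Bmpr2 and Gdf11. A site belonged to a gene when its midpoint lay inside the gene or within 50000 bp of either of its ends (RefSeq positions, mm10). This gave 69 of the 9001 sites listed in the authors' deposited table. All 7 genes had sites: 15 for Nodal, 6 for Lefty1, 8 for Lefty2, 14 for Tgfb2, 7 for Inhbb, 12 for Bmpr2 and 12 for Gdf11. Lefty1 and Lefty2 are neighbours and share 5 sites, so Nodal and the Lefty genes hold 24 sites and the other genes 45. The genes were chosen by results of the same comparison, the log2 fold changes of their sites, so every count and change below is a description of these loci and not a test.

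Accessibility was measured by ATAC-seq, in which the transposase Tn5 inserts adapters into open chromatin. Mouse R1 embryonic stem cells (ESC, 3 libraries) were set against neural progenitor cells (NPC, 3 libraries), and both are labelled with the strain R1. The labels name no treatment, genotype or passage, and leave unsaid if the 3 libraries of each cell type are separate cultures. The deposited values combine the 6 libraries, so no value per library, SD or depth stands beside a site, and the deposited p-values measure a spread between libraries that may be technical. Each site is 500 bp wide and carries a mean signal (normalized counts, averaged across all 6 libraries), a log2 fold change of NPC over ESC with its standard error (SE), and an adjusted p. A site is called higher or lower when that adjusted p is below 0.05. The direction NPC over ESC comes from the name of the table. In such bulk libraries a site open in fewer cells and a site less open in each cell cannot be told apart, both groups stand for a single cell line, and a site's distance from a gene says nothing of its action on that gene. Of the marker genes listed for each cell type, Tfcp2l1 and Prdm14 (stem cell) had 14 of 18 sites called lower in NPC and 1 called higher, while Fabp7 and Pou3f3 (neural progenitor) had 8 of 12 called higher and 0 called lower. The other markers lie outside the regions listed, which are chromosome 1, chromosome 10 and the start of chromosome 11.

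TGF-beta family ligands are secreted dimers that bring together type I and type II serine/threonine kinase receptors, which phosphorylate SMAD proteins that enter the nucleus. Nodal signals through activin receptors and an EGF-CFC co-receptor to SMAD2 and SMAD3. Lefty1 and Lefty2 are secreted inhibitors of Nodal and are themselves Nodal targets, which makes a negative feedback loop. The loop is active in mouse embryonic stem cells and the early embryo, and neural tissue forms where Nodal and BMP signals are held low. Tgfb2 is a ligand with wide roles in heart, skeletal and neural development. Inhbb encodes the beta B subunit of activin B and inhibin B, Bmpr2 the type II receptor of bone morphogenetic proteins, and Gdf11 a ligand of axial patterning and of the timing of neurogenesis.

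Of the sites inside Nodal or a Lefty gene, or with it as the gene of nearest end, 4 of 4 were called lower in NPC. Of the other 20 sites in their windows, which lie in or nearer to neighbouring genes, 8 were called higher, 3 lower and 9 were not called. Both sites that lie inside Nodal or have it as their nearest gene were called lower, and 4 consecutive sites from 3.76 kb below Lefty2 to 10.042 kb below Lefty1 in chromosome order were called lower. Of these 4, 2 have a Lefty gene as the nearest gene and 2 another gene. The listed site closest to Lefty1, 7.42 kb away inside Tmem63a, was called higher. At Tgfb2 the reverse stood inside the gene, with 5 of 7 sites called higher and 0 called lower. Over the whole windows the 2 sets of genes did not part by direction: 7 of 24 sites at Nodal and the Lefty genes were called lower and 8 higher, and 10 of 45 sites at the other genes lower and 16 higher. Over all 9001 listed sites, 32.6% were called lower and 22.8% higher by the deposited adjusted p. With p recomputed from the fold change over its SE, these shares were 26.5% and 18.8%. Centring on the median of all sites, which also recomputes p, gave 22.8% and 23.1%. Those shares come from the comparison that chose the genes, so nothing is read from the difference. The median log2 fold change was 0.21 at Nodal and the Lefty genes and 0.44 at the others, against -0.29 over all sites. All 7 genes held calls in both directions, as did 71.7% of the 1246 protein-coding genes with at least 6 sites.

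**Figure D1:**
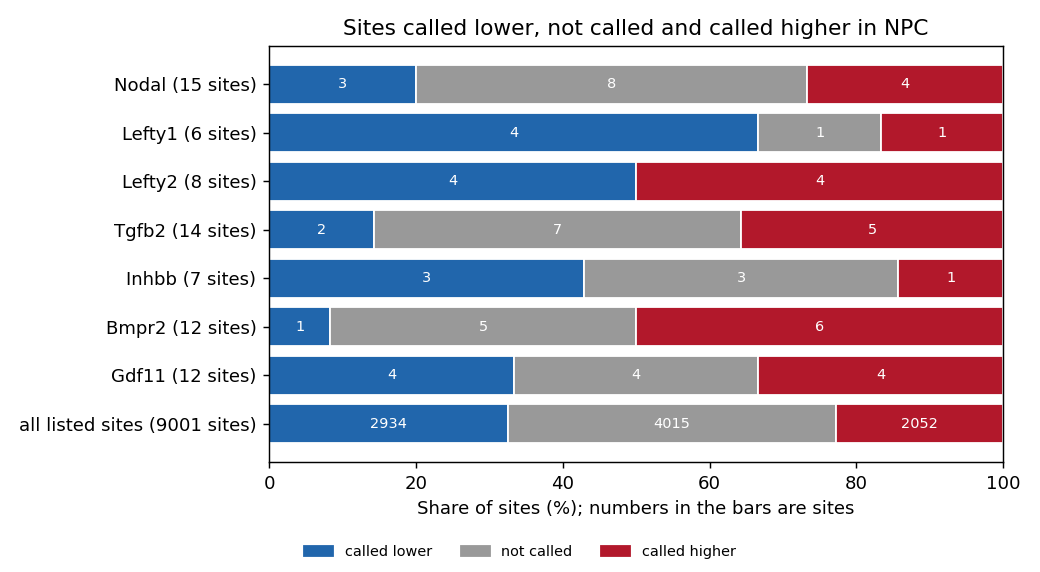
Share of the sites within 50 kb of each gene that were called lower (blue), not called (grey) or called higher (red) in NPC, with the number of sites in each bar (x axis: percent of the gene's sites). Lefty1 and Lefty2 share 5 sites. Each of the 7 genes holds both colours, and the last bar gives all 9001 listed sites.

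The promoters show which start regions the SP1 sites cover. RefSeq promoter windows (build GRCm38.p6, which is mm10) matched 5 of the 7 genes, Nodal, Tgfb2, Inhbb, Bmpr2 and Gdf11, and the 250 bases before each start (windows of equal length throughout) were searched for the GC box, the core motif of SP1, as GGGCGG on either strand (GGGCGG or CCGCCC on the strand printed), counting overlapping matches. Such a match stands in 32.7% of all 32851 windows, and in 59.0% of the 1256 windows that overlap a listed site. Gdf11 is the member among these 5 whose promoter lies in a listed site, and it is printed for its 8 matches, 4 of which run into each other. At least as many matches stand in 0.155% of all windows and in 0.398% of the windows that overlap a listed site. The promoters of the neighbours Rdh5 and Fam117b overlap sites called higher and hold 1 and 3 matches. The promoters of Nodal and Tgfb2 lie in no listed site and hold 0 matches, while those of Inhbb and Bmpr2 hold 1 each, also outside any listed site. Each sequence is 5′ to 3′ along the gene and ends 1 base before the start, with matches in capitals.
Gdf11, chr10:128891719-128891968, minus strand: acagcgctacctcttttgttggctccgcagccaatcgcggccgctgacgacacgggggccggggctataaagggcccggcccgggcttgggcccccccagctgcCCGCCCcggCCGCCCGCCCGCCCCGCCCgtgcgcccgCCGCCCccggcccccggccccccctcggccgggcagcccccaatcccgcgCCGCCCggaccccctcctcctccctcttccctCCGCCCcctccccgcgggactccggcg
Rdh5, chr10:128919298-128919547, minus strand: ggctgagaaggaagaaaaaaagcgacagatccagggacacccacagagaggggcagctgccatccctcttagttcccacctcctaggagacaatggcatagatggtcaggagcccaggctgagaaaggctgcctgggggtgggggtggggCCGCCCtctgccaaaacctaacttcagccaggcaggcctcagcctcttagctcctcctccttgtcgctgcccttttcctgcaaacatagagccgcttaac
Fam117b, chr1:59912756-59913005, plus strand: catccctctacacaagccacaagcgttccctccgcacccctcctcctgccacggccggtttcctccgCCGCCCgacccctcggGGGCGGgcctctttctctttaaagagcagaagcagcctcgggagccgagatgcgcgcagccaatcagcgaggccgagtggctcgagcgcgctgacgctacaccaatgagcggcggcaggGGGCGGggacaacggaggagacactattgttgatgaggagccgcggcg
Nodal, chr10:61417722-61417971, plus strand: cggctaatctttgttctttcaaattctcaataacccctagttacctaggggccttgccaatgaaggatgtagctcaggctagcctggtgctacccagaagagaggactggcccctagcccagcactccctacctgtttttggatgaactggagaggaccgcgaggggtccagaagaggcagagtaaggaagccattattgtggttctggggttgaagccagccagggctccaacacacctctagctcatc
Tgfb2, chr1:186705990-186706239, minus strand: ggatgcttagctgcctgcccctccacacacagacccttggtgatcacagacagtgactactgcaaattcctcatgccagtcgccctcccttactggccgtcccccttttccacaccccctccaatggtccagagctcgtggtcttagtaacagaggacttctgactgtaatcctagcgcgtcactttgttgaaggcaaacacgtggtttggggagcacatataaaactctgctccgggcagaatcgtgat

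Nodal (chromosome 10 from 61417972 to 61425338, plus strand) had its lowest value just before the gene. The site at chr10:61416142-61416642, 1.58 kb before the start, had a mean signal of 11.03 and a log2 fold change of -5.12 ± 1.16 (SE) in the authors' deposited table, 34.9-fold lower in NPC (adjusted p = 2.20e-05). The site inside the gene, 5.49 kb after the start at chr10:61423209-61423709, had -3.86 ± 1.06 there (adjusted p = 0.000472, the authors' deposited table). Between these sites lies the promoter printed above, over which no site is listed. Exon and intron positions were not used here.

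The other sites of the Nodal window, on either side of this pair, lay inside other genes or had another gene as the gene of nearest end. At the end of Eif4ebp2, a repressor of cap-dependent translation, a site 3.18 kb beyond Nodal was called higher with 3.27 ± 0.51 in the authors' deposited table (adjusted p = 7.19e-09). It lies at the end of Eif4ebp2 that is opposite its start. The site over the Eif4ebp2 promoter, which holds 2 GC boxes, was not called (0.22 ± 0.26, the authors' deposited table). Across the other 4 sites inside or beyond Eif4ebp2 the deposited values ran from -1.10 to 1.12, and none was called.

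On the other side, 23.0 kb before Nodal, a site between genes was called lower (-2.50 ± 0.85, adjusted p = 0.00433, the authors' deposited table). Next to it, 28.7 kb before Nodal, a site was called higher at 5.44 ± 1.13 (43.3-fold, adjusted p = 4.61e-06, the authors' deposited table), the highest value among the sites of Nodal and the Lefty genes. These neighbours lie 5231 bp apart and differ by 7.93 on the log2 scale. Inside Pald1, which encodes the phosphatase-like protein paladin, 2 more sites were called higher, at 4.91 ± 0.85 and 3.40 ± 1.32 in the authors' deposited table. The Pald1 promoter site was not called (0.24 ± 0.33, the authors' deposited table), nor were the other sites in this stretch, with deposited values of -0.77 and 0.20. Of the 13 sites of the Nodal window that lie in or nearest to other genes, 4 were called higher and 1 lower.

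The Lefty locus had a block of lower sites with higher sites outside it. Lefty2 (chromosome 1 from 180893108 to 180899107) and Lefty1 (from 180935022 to 180938401) lie on the same stretch of the chromosome. Their strand was not used, so positions are given along the chromosome. The site 3.76 kb below Lefty2, at chr1:180889100-180889600, had -3.29 ± 0.93 in the authors' deposited table (9.78-fold lower, adjusted p = 0.000849). Above Lefty2, at chr1:180902925-180903425 and 4.07 kb from the gene, the authors' deposited table gave -4.26 ± 1.03 (adjusted p = 9.18e-05). The next site, 15.1 kb from Lefty1, had -2.78 ± 0.89 (adjusted p = 0.00278, the authors' deposited table). At the upper end of the block, 10.042 kb below Lefty1 at chr1:180924730-180925230, stood its lowest value, -5.29 ± 1.16 (39.0-fold lower, adjusted p = 1.19e-05, the authors' deposited table). No site is listed inside either Lefty gene. These 4 follow each other with no listed site between them, and 6.60% of all listed sites stand in runs of 4 or more consecutive sites called lower.

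The next listed site above the block lies inside Tmem63a, which encodes an osmosensitive ion channel. This site, 7.42 kb above Lefty1 and closer to it than any site of the block, was called higher (1.58 ± 0.37, adjusted p = 8.88e-05, the authors' deposited table). A site near Ephx1, the microsomal epoxide hydrolase gene, had 0.04 ± 0.48 and was not called (the authors' deposited table). On the Lefty2 side 3 sites in front of Sde2, a gene of genome maintenance and splicing, were all called higher, with 1.54 ± 0.46, 5.25 ± 1.00 and 0.59 ± 0.27 in the authors' deposited table. The last of these covers 245 of the 250 bases of the Sde2 promoter window, which holds 2 GC boxes, and has the highest mean signal of the Nodal and Lefty sites, 47.3.

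**Figure D2:**
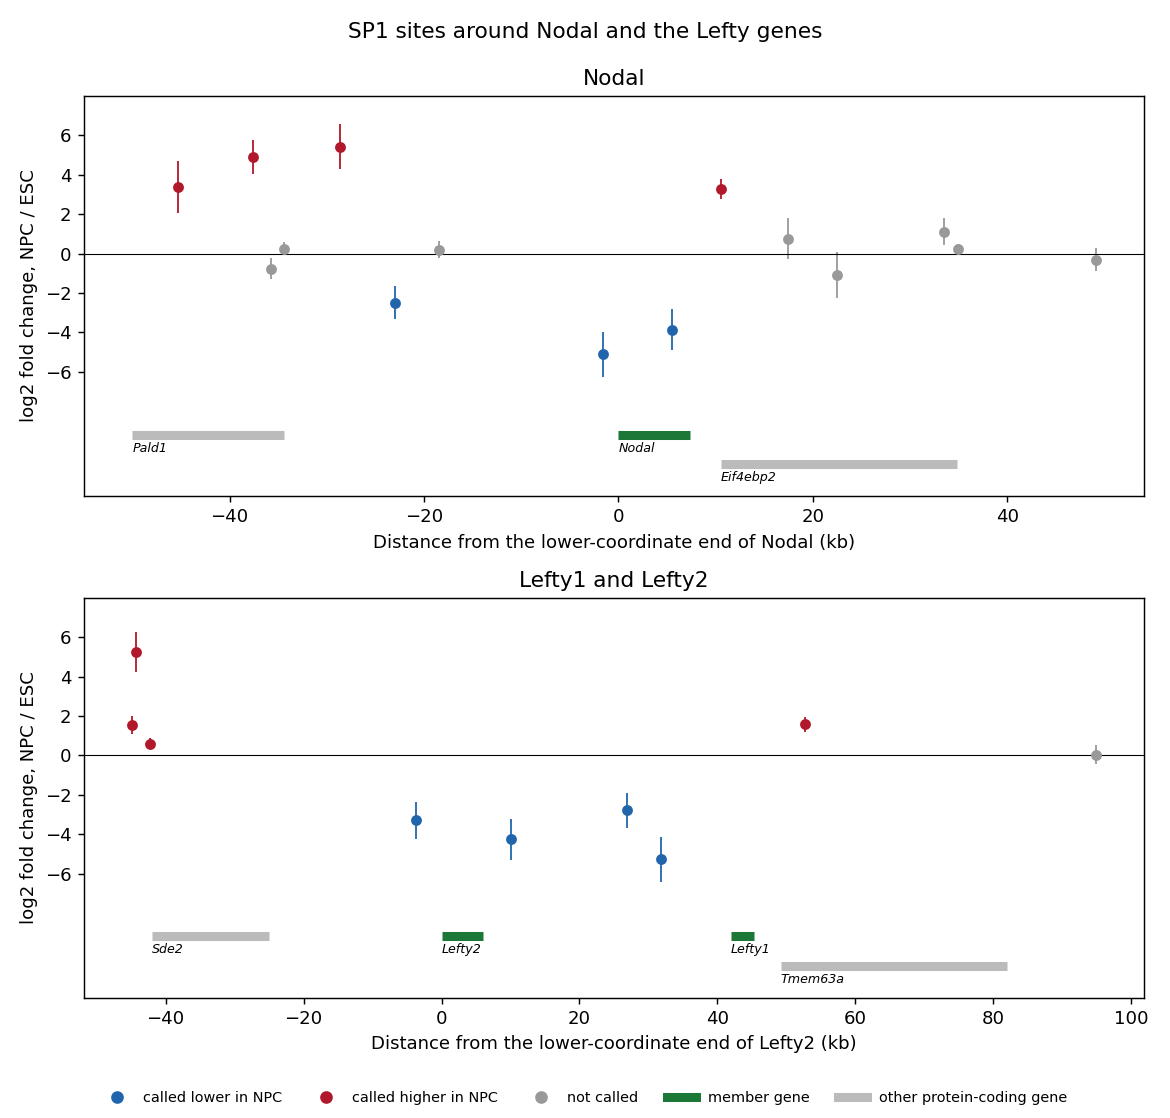
Log2 fold change of NPC over ESC (y axis, points, bars ± 1 SE as deposited) at each SP1 site against its distance in kb from the lower-coordinate end of Nodal (top) and of Lefty2 (bottom). Bars below show the members and other protein-coding genes within 50 kb of them, 1 of which is not drawn. The points at Nodal (-5.12 and -3.86) and from Lefty2 to Lefty1 (-5.29 to -2.78) lie below 0, and the red points at Pald1, Eif4ebp2, Sde2 and Tmem63a lie above it.

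Tgfb2 (chromosome 1 from 186622787 to 186709697, minus strand, 86.9 kb long) had calls in 1 direction inside the gene. Positions are counted from the start of its RefSeq promoter window, 186705989, which lies inside the gene's span. The highest value of all 69 sites stood there, at chr1:186655084-186655584 and 50.7 kb after the start, with 5.83 ± 0.98 in the authors' deposited table (56.9-fold higher in NPC, adjusted p = 2.26e-08). Further inside the gene, 78.2 kb and 59.3 kb after the start, the authors' deposited table gave 4.57 ± 1.02 (adjusted p = 2.24e-05) and 4.52 ± 1.25 (adjusted p = 0.000401). The sites 44.6 kb and 2.84 kb after the start had 3.07 ± 0.97 and 2.87 ± 0.54 there (the authors' deposited table, adjusted p = 0.00248 and 1.82e-06). The last 4 of these sites along the chromosome follow each other, and 3.53% of all listed sites stand in such runs of sites called higher. The 2 uncalled sites in the gene had 1.35 ± 1.09 and, 1.32 kb after the start, -0.31 ± 0.49 in the authors' deposited table.

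Past the upper end of Tgfb2, towards Rrp15, a gene of ribosomal RNA processing, the signs turned. A site 10.2 kb from Tgfb2 was called lower at -2.81 ± 0.89, and another inside Rrp15 at -2.73 ± 1.24 (adjusted p = 0.00253 and 0.0207, the authors' deposited table). The site over the Rrp15 promoter had 0.24 ± 0.30 in the authors' deposited table and was not called, nor were the 2 remaining sites there (-0.43 ± 0.44 and -2.03 ± 1.17). Neither site on the far side of Tgfb2 was called. The one 24.2 kb away had -0.9999 ± 0.878 (the authors' deposited table), and the one 12.7 kb away had the highest mean signal of the Tgfb2 window, 30.1, with a log2 fold change of 0.15 ± 0.27 (the authors' deposited table).

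Inhbb (chromosome 1 from 119415463 to 119422248, minus strand) had all 7 sites between genes and none inside it. The lowest value of all 69 sites stood 16.6 kb past its end, at chr1:119398644-119399144, with -6.48 ± 1.13 in the authors' deposited table (89.2-fold lower in NPC, adjusted p = 3.84e-08). The site 1.52 kb before the start was called lower at -2.04 ± 0.41, and one 20.9 kb before it at -4.33 ± 1.29 (adjusted p = 7.29e-06 and 0.000868, the authors' deposited table). A site 31.4 kb past the end was called higher at 4.54 ± 1.25 (adjusted p = 0.00038, the authors' deposited table). The remaining 3 sites, with deposited values from -0.52 to 0.87, were not called, and among them the one with the highest mean signal of the window, 33.8, had -0.52 ± 0.29 in the authors' deposited table (adjusted p = 0.0687).

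Bmpr2 (chromosome 1 from 59764279 to 59878081, plus strand) had 6 sites called higher and 1 called lower. A pair of overlapping sites lies before the start. The one 904 bp away was called higher at 1.12 ± 0.43 (adjusted p = 0.00766, the authors' deposited table) and the one 1.31 kb away was not (0.44 ± 0.44, the authors' deposited table). Inside the gene 2 of 4 sites were called higher, 24.9 kb and 69.7 kb after the start, with 3.50 ± 1.09 and 3.93 ± 1.05 in the authors' deposited table. A further pair of overlapping sites called higher, 0.71 ± 0.35 and 0.89 ± 0.26 in the authors' deposited table, lies at the promoter of Fam117b printed above. The 4 remaining uncalled sites of the window had deposited values from -1.85 to 1.25. The other calls lay between Bmpr2 and Nop58, a gene of ribosomal RNA modification. There a site 38.4 kb before Bmpr2 was called higher (3.82 ± 1.24) and its neighbour, 2409 bp on, lower (-4.52 ± 1.18, both from the authors' deposited table).

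Gdf11 (chromosome 10 from 128880524 to 128891718, minus strand) lies in a gene-dense stretch, and 8 of its 12 sites are within 1000 bp of a gene end. The site over its GC-rich promoter, at chr10:128891715-128892215, was not called (0.79 ± 0.46, adjusted p = 0.0617, the authors' deposited table), nor was the site 308 bp inside the gene (0.26 ± 0.36) or one between Gdf11 and Cd63 (0.33 ± 0.35). Deeper in the gene, 2.67 kb after the start, a site was called lower at -2.31 ± 0.46 in the authors' deposited table (4.96-fold, adjusted p = 4.95e-06). At Cd63, the gene of a tetraspanin of endosomes and exosomes, the authors' deposited table gave 1.24 ± 0.41 at the gene end and -4.08 ± 0.78 inside the gene, both called. At Rdh5, a retinol dehydrogenase gene, the promoter site was called higher at 3.05 ± 0.58 and a site 389 bp from it at 2.50 ± 0.72, while its other end was called lower at -0.90 ± 0.39 (the authors' deposited table). The promoter site of Bloc1s1, a gene of lysosome biogenesis, was not called (0.52 ± 0.35, the authors' deposited table). At Itga7, an integrin subunit gene, a site 3.61 kb away was called higher at 3.27 ± 1.36 and the gene-end site lower at -1.15 ± 0.44 in the authors' deposited table.

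**Figure D3:**
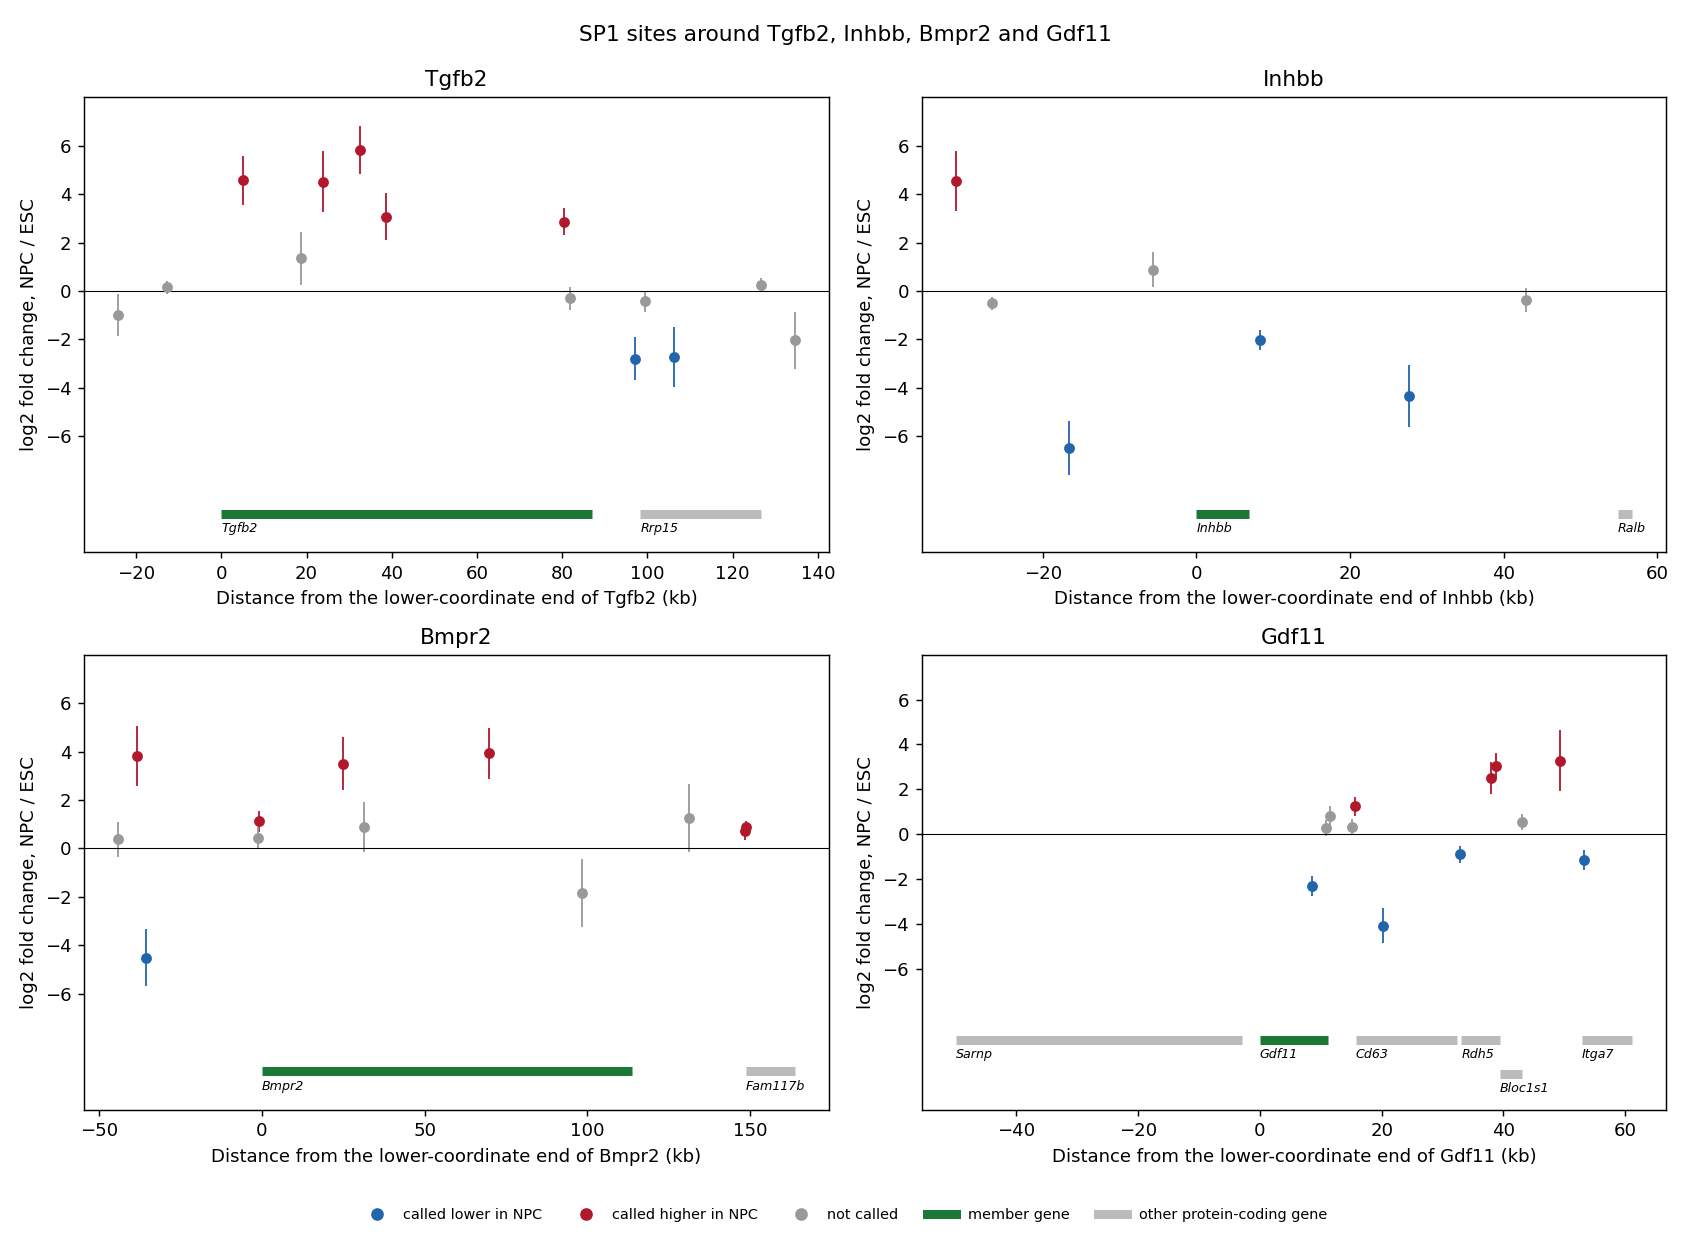
Log2 fold change of NPC over ESC (y axis, points, bars ± 1 SE as deposited) at each SP1 site against its distance in kb from the lower-coordinate end of Tgfb2, Inhbb, Bmpr2 and Gdf11. Tgfb2, Inhbb and Gdf11 are read from right to left. The 5 red points inside Tgfb2 lie between 2.87 and 5.83, and the blue point at -6.48 is the lowest of all 69 sites.

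Set side by side by the nearest gene, the loci parted more than by the 50 kb window. Of the sites inside a gene or nearest to its end, 4 of 4 at Nodal and the Lefty genes were called lower. These 4 do not include the site called higher 7.42 kb from Lefty1, whose nearest gene is Tmem63a. At Tgfb2 5 of 9 such sites were called higher and 0 lower, at Bmpr2 3 of 6 higher and 0 lower, at Inhbb 1 of 6 higher and 3 lower, and at Gdf11 0 of 3 higher and 1 lower. Over those 4 genes 9 of 24 were called higher and 4 lower. Of all listed sites 22.8% were called higher and 32.6% lower, and of all listed sites in gene bodies 24.7% and 33.2%. Inhbb and Gdf11 thus did not share the direction of Tgfb2 in these counts. No test of the difference was run, because the genes were chosen by it.

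Sites at gene ends spanned a narrower range than sites between genes in these loci, where gene-end sites are also fewer. Over all listed sites the values ran from -6.64 to 5.75 at gene ends and from -7.03 to 7.15 between genes. The 16 sites within 1000 bp of a gene end included 2 called lower and 7 called higher, with deposited values from -1.15 to 3.27. Of all listed gene-end sites 16.1% were called lower and 24.1% higher. The 12 sites of Nodal and the Lefty genes between genes ran from -5.29 to 5.44 and had 6 called lower and 3 higher, and the 17 of the other genes from -6.48 to 4.54 with 5 lower and 3 higher. Of all listed sites between genes 38.3% were called lower and 20.5% higher. Over the whole table the median log2 fold change of called gene-end sites was 1.03 for the higher and -2.43 for the lower, against 3.32 and -3.42 between genes. The median SE was 0.38 at gene ends and 1.03 between genes, with a median mean signal of 18.1 and 4.75. A site with a larger SE is called only at a larger change, so nothing is read from these medians of called sites. Of the 69 sites, 9 overlap a RefSeq promoter window.

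The members' mean signal had a median of 9.58, against 5.78 over all listed sites, and ran from 1.72 to 49.3. The deposited SE ran from 0.26 to 1.42. Plotted against mean signal, the outermost sites of the table lie along curves that widen as it increases, so the order of size among such sites follows their signal. The Inhbb site at -6.48 stood beside a lowest value of -6.50 among the 107 sites with a mean signal within 5% of its own. The Inhbb site at 4.54 and the Tgfb2 site at 4.52, with mean signals of 3.70 and 3.77, stood beside highest values of 4.57 and 4.62 in their bands. The Nodal site at -5.12 and the Lefty1 site at -5.29 lay further in, with lowest values of -6.09 and -6.16 in theirs.

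**Figure D4:**
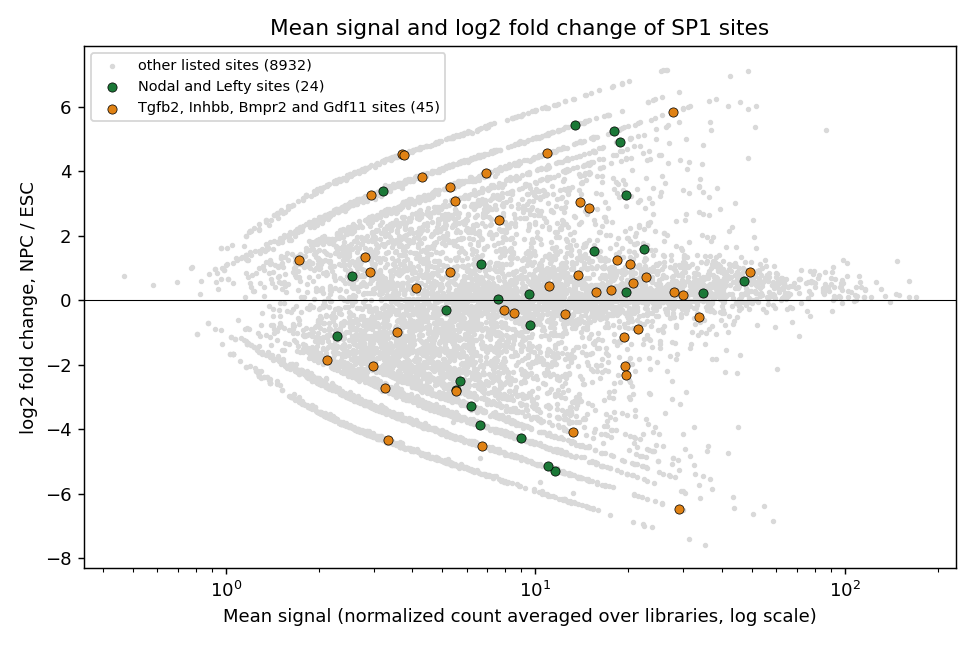
Log2 fold change of NPC over ESC (y axis) against mean signal (x axis, log scale) for the 24 sites of Nodal and the Lefty genes (green), the 45 of Tgfb2, Inhbb, Bmpr2 and Gdf11 (orange) and the other listed sites (grey). The outer grey points form curves that widen with signal, and the orange point at -6.48 is the lowest of the 69 sites.

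The window decided which sites entered. Just outside it, 50.4 kb beyond Nodal, a site had 0.59 ± 0.29 in the authors' deposited table (called higher), and the last one inside had -0.30 ± 0.59. On the Pald1 side the authors' deposited table gave 2.57 ± 0.91 just outside (51.9 kb) and 3.40 ± 1.32 just inside (45.3 kb). The other sites just outside lay 50.4 to 91.4 kb from their gene, with deposited values from -5.41 (66.4 kb before Bmpr2) to 4.07 (77.3 kb above Lefty1).

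The other genes of the pathway had calls in both directions. A list of 96 further ligands, receptors, SMADs, modulators and targets had 12 genes in the listed regions, all with sites, 61 in all and none shared with the members. Of these 61, 23 were called lower (37.7%) and 10 higher (16.4%), against 32.6% and 22.8% of all listed sites, with a median log2 fold change of -0.23 against -0.29. The share called lower was near that of all sites, which lies inside its 95% Wilson interval (26.6% to 50.3%, counting error only). Inha, the inhibin alpha subunit gene, had 4 of 10 sites called lower and 0 higher, with -4.18 ± 0.88 at the site of smallest adjusted p (1.04e-05, the authors' deposited table). That site lies 7.82 kb away and has Stk11ip as its nearest gene. Inhbc and Inhbe, the adjacent genes of the activin C and E subunits, share 11 sites, of which 6 were called lower and 0 higher, led by a site 131 bp from Inhbe with -4.38 (adjusted p = 0.000383, the authors' deposited table). Cfc1, the Nodal co-receptor Cryptic, had 3 of 4 sites called lower, with -2.38 ± 0.70 where it overlaps Prss40 (adjusted p = 0.0014, the authors' deposited table). Amh, the anti-Müllerian hormone gene, had 3 of 9 called higher and 1 lower, and the lower one had the smallest adjusted p (-2.50 ± 0.69, the authors' deposited table) and lies 41.1 kb away. Both sites of Mstn, the myostatin gene, were uncalled, with 1.63 ± 2.05 at one of them (the authors' deposited table).

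Antagonists and modulators were mixed. Fstl3, which binds activin and myostatin, had 4 of 8 sites called lower and 1 higher, of which one inside the gene had -1.054 ± 0.303 (the authors' deposited table). Tmeff2, a transmembrane protein with follistatin modules, had 1 site in each direction, led by 3.57 ± 0.92 in the authors' deposited table. That leading site lies 29.2 kb from Tmeff2, and the one called lower, 0.18 kb from the gene, had -3.98 ± 1.23 (the authors' deposited table). Tgfbrap1, a receptor-associated adaptor, had 3 of 6 sites called higher and 1 lower, led by 3.43 ± 1.32 (the authors' deposited table). That leading site lies 6.03 kb from Tgfbrap1 and has Gpr45 as its nearest gene. Tab2, an adaptor of the TAK1 kinase, had 1 of 4 sites called in each direction, and its gene-end site led with 1.13 ± 0.32 (the authors' deposited table). Mixl1, a homeobox target of Nodal signalling in the primitive streak, also had 1 of 4 called in each direction. The higher one, 1.13 ± 0.36 by the authors' deposited table, lies at the end of Acbd3, 29.0 kb away.

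**Figure D5:**
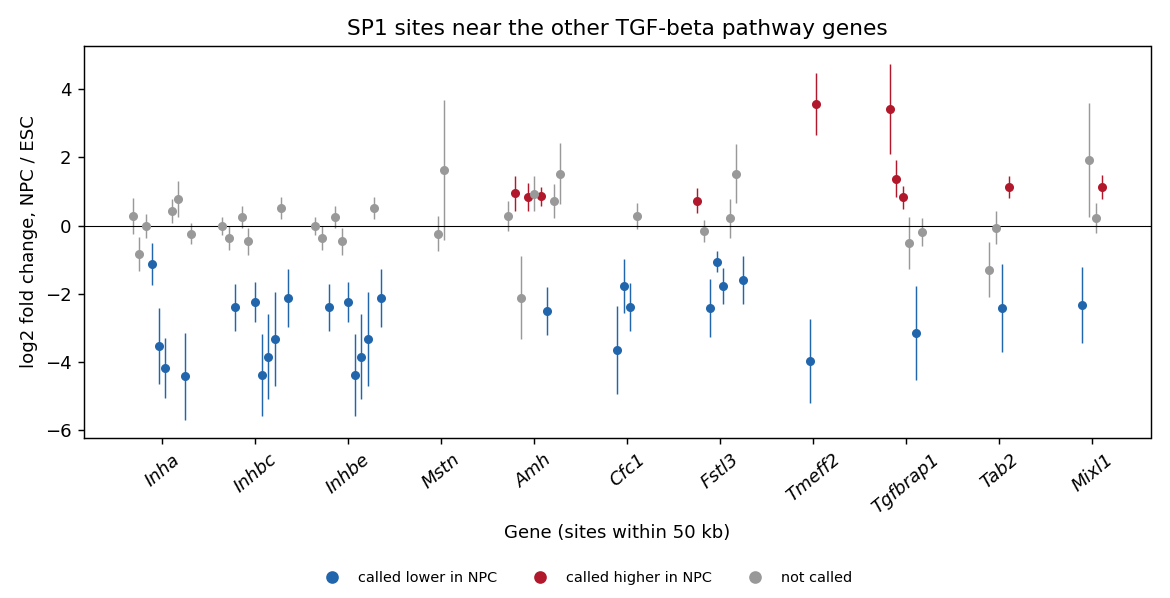
Log2 fold change of NPC over ESC (y axis, points, bars ± 1 SE as deposited) at the sites within 50 kb of 11 of the 12 further TGF-beta pathway genes (x axis), in chromosome order within each gene. Inha, Inhbc, Inhbe and Cfc1 have blue and grey points and 0 red ones, and Inhbc and Inhbe show the same 11 sites.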

How the data were processed

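The data were 1 table of the authors' comparison of ATAC-seq at SP1 sites. The submitters' processing notes name mm10, BWA 2.1, Picard 2.23.8, MACS2 2.2.7, SAMtools 1.9 and DESeq2, with no role or settings. The choice of SP1 sites, any Tn5 shift and the model are steps not given in the sources used here, and each could change the values. Per the file headers, the deposited mean signal is a normalized count averaged over libraries. The log2 fold change with its SE, the p-value and its adjusted form were deposited by the authors. Fold change over SE gave a p no smaller than theirs at each of the 9001 sites (median ratio 2.35), and no source used here says if fold changes were shrunk. Values per library and their depth were not analysed here. Sites were assigned with RefSeq GRCm38.p6 positions (Python 3.11.15, pandas 2.3.3), with functions tested on simulated data. Coordinates are as the table gives them, with no statement of a count from 0 or 1. The members, gene lists and alternatives (window, nearest gene, thresholds, signal filter, overlap, centring, recomputed p) were chosen with earlier results of these data known. All sites of the members are described, singly or by their range, and of each pathway gene the site of smallest adjusted p. A pathway gene and a neighbouring gene are not reported here by name, and the counts over the 12 pathway genes include the former.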

Additional observations from a re-analysis of the deposited data

How the results depend on the processing

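Of 81 values under the alternatives, 64 stayed within the 95% interval of the value reported with no change of sign, and 12 moved beyond it. The remaining 5, all medians, changed sign, some inside that interval and some beyond it. A median cannot change under alternatives that alter only the calls (stricter adjusted p, minimum log2 change, recomputed p). The 64 thus include values fixed in advance and do not measure robustness. At Nodal and the Lefty genes the rule of assignment decided the direction. Within 10 kb 4 of 6 sites were called lower (66.7%) and 2 higher, with a median log2 fold change of -3.58, and among sites inside a gene or nearest to it 4 of 4 were called lower (100%) and 0 higher (0%), with a median of -4.49. Within 100 kb 11 of 37 were lower and 13 higher. At the other members 3 of 21 were lower and 9 higher within 10 kb, and 4 of 24 and 9 by nearest gene. Within 100 kb 18 of 63 were called each way, and the median turned to -0.096. At or above median signal 7 of 28 were lower and 10 higher. For the 12 further pathway genes 13 of 23 sites were lower within 10 kb (56.5%, median -1.77, 5 higher). By nearest gene 11 of 19 were lower (57.9%, median -1.77, 4 higher). Within 100 kb 33 of 109 were lower (30.3%) and 21 higher. With the 50 kb window of these genes, an adjusted p below 0.01 gave 24.6% lower and 8.20% higher (all sites: 23.2% and 16.5%). A log2 change above 1 gave 8.20% higher (all sites: 20.3%). Sites of at least median signal gave 24.4% lower and a median of 0.21. No share over all sites under this filter is given here, so nothing is read from that change. The recomputed p gave 29.5% lower (all sites: 26.5%). Centring on all sites, which also recomputes p, gave 24.6% lower (all sites: 22.8%) and a median of 0.051. The causes were not tested. Leaving out libraries was not run, since values per library were not analysed here. No paired analysis was possible because the table combines the libraries. Low mean signals limit the precision at single sites.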

Other observations

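Close neighbours among the members differed little, with 1 exception. In front of Sde2, 43 bp separate a site with 1.54 ± 0.46 from one with 5.25 ± 1.00 (log2 fold changes from the authors' deposited table), a difference of 3.71. Over the whole table, consecutive sites with a gap of 0 to 1000 bp (510 such neighbours) differed by a median of 1.46, against 2.17 for all 8998 consecutive sites. The other 5 such neighbours among the members differed by 0.54 to 1.01. The overlapping sites before Bmpr2 differed by 0.68 and those at Fam117b by 0.18.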
